A study of Mus musculus with 8 samples.

Results

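The BCL2 family decides whether a cell keeps its mitochondrial outer membrane intact, and 9 of its genes were followed here by symbol among the 21080 genes quantified in mouse bone marrow-derived macrophages (BMDMs): the pro-survival genes Bcl2, Bcl2l1, Mcl1, Bcl2a1b and Bcl2a1d, the effectors Bax and Bak1, and the BH3-only genes Bcl2l11 and Bid. All 9 were present in the data and all 9 passed the filter on low values, as did 16284 genes in all. RNA-seq was available from 8 samples of C57BL/6 BMDMs, 2 in each of 4 groups. WT samples came from LysM-Cre mice and cKO samples from Nudt21 fl/fl LysM-Cre littermates of matched sex, so that both genotypes carried the Cre recombinase, which is driven from the lysozyme M gene and acts in myeloid cells. Each genotype was taken at 0 h and after stimulation (IFNγ overnight, then LPS for 4 h). Each sample pooled cells of 2 mice that had been differentiated with M-CSF, a growth factor on which macrophages depend for survival. The 0 h samples are named as such by their titles, although the treatment label is the same for all 8 samples. The study describes the points in its BMDM graphs as coming from different mice, but it is not stated whether pools of the same number at 0 h and 4 h shared mice. The p-values measure only the spread between these pools.

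Pro-survival members of the family bind and hold back the effectors Bax and Bak1, which otherwise form pores in the outer mitochondrial membrane and release cytochrome c. BH3-only proteins start this process, either by occupying the groove of the pro-survival proteins or by acting on the effectors themselves. In myeloid cells Mcl1 and the Bcl2a1 (A1) genes are known for supporting survival, and the A1 genes are classical targets of NF-κB, the transcription factor that LPS activates. Nudt21 encodes a subunit of the cleavage factor that reads UGUA motifs near poly(A) sites and so takes part in the choice of 3′ end. Coverage averaged along a gene can therefore move with the length of the 3′ untranslated region (3′UTR) as well as with the amount of mRNA, and the 2 could not be told apart here.

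On GRCm38, GENCODE M21 places Bcl2 at chr1:106538178-106714274 (minus strand), Bcl2l1 at chr2:152780668-152831728 (minus), Mcl1 at chr3:95658788-95663176 (plus), Bcl2a1b at chr9:89199209-89207827 (plus) and Bcl2a1d at chr9:88723285-88731914 (minus). Bax lies at chr7:45461697-45466898 (minus), Bak1 at chr17:27019810-27029009 (minus), Bcl2l11 at chr2:128126038-128162547 (plus) and Bid at chr6:120891930-120916853 (minus). The values describe each gene as a whole, over all of its exons.

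The UGUA motifs that Nudt21 recognises are shown for the 3 members called between genotypes after stimulation on median scaling or on equal total coverage, both described below, as the last such motif before the annotated 3′ end of the principal transcript in GENCODE M21 on GRCm38. Capitals mark the motif, written as TGTA on the sense strand.
Bcl2l11: tgtgcaatactgcTGTAaataactgcagat
Bcl2l1: tgttaagcgtgtcTGTAtttatgtgtgagg
Mcl1: agttaatgtgggtTGTAaatgttcccctaa
The Bcl2l11 motif lies at chr2:128162461-128162464 on the plus strand, 87 bases before the transcript end. The Bcl2l1 motif lies at chr2:152780908-152780911 on the minus strand, 240 bases before the end, and the Mcl1 motif at chr3:95663119-95663122 on the plus strand, 58 bases before the end. The members differ widely in how many such motifs their 3′UTR holds. Bcl2l11 has 35 in 4218 bases of 3′UTR, a density of 8.30 per kb, and Mcl1 has 22 in 2353 bases, a density of 9.35. Bcl2l1 has 2 in 1473 bases, a density of 1.36, and Bak1 has 2 in 1121 bases. Over 20234 protein-coding genes the median density was 5.04 per kb and 85.3% of 3′UTRs held at least 1 motif, so the Bcl2l11 and Mcl1 densities exceed those of 82.1% and 87.5% of genes and the Bcl2l1 density exceeds that of 16.4%. Bid has the highest density of the 9, with 14 motifs in 1427 bases (9.81 per kb, above 89.2% of genes), and was not called between genotypes on either scaling. Bcl2 has 26 in 5086 bases. The 3′UTRs of Bcl2a1b, Bcl2a1d and Bax are only 147, 149 and 165 bases long and hold 1 motif each. A match to the letters is a description of the sequence and not a measured binding site.

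The A1 genes are near-identical copies on chromosome 9, and their sequences are shown because reads can be assigned to the wrong copy. The coding sequences of Bcl2a1b and Bcl2a1d are 519 bases each and 98.8% identical, and together with Bcl2a1a they differ at 12 positions. The window of 30 coding bases with the most differences is the first, in which capitals mark the 5 positions that are not the same in all 3 genes.
Bcl2a1a: atgGctgagtCTgagCtcatgCatatccac
Bcl2a1b: atgGctgagtACgagTtcatgTatatccac
Bcl2a1d: atgTctgagtACgagTtcatgTatatccac
These windows lie at chr9:88957051-88957080 (plus strand), chr9:89199360-89199389 (plus strand) and chr9:88731690-88731719 (minus strand) on GRCm38. Of all windows of 150 bases along the transcript, 14.2% in Bcl2a1b and 30.3% in Bcl2a1d occur unchanged in another A1 gene, so the split of coverage between the copies is uncertain.

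The unit of the values is not named, and they were taken as read coverage averaged over the bases of a gene. Such coverage already accounts for gene length and can be compared between genes. Total coverage ranged from 14950347 to 17954882 per sample. The numbers of genes above 0 were 16362 to 16486 at 0 h and 14737 to 15947 after stimulation, lowest in stimulated WT replicate 1. Nudt21 served as the check of genotype, with coverage of 718 and 641 (WT) against 158 and 172 (cKO) at 0 h, and 547 and 575 (WT) against 142 and 115 (cKO) after stimulation. It was lower in cKO at both times (log2 fold changes -2.13 ± 0.13 and -2.49 ± 0.13 (SE), limma with Benjamini-Hochberg adjusted p = 0.00396 and 0.00178), and since the loxP sites flank only part of the gene, its other exons can still give coverage. All 6 genes used as a check of stimulation, among them Nos2, Tnf and Il6, rose in both genotypes. All 8 macrophage markers were present, with summed coverage of 120530 to 132928 at 0 h and 64070 to 75278 after stimulation. Between genotypes the macrophage markers went both ways. On median scaling, described below, Adgre1 (log2 fold changes -0.75 and -0.82 at 0 h and 4 h) and Fcgr1 (-0.99 and -0.65) were called lower in cKO at both times and Cd68 was called higher at 4 h (0.71, also on equal total coverage), while Lyz2 gave 0.69 and 0.46 without a call (limma). On equal total coverage Adgre1 was called only at 4 h, Fcgr1 only at 0 h and Csf1r also at 0 h (-0.68). The sum of 8 neutrophil markers was 23950 to 26512 in WT and 27802 to 36847 in cKO at 0 h, and 18010 to 22253 in WT and 22710 to 25791 in cKO after stimulation, with S100a9 the most abundant and Ly6g at most 7.37. Of the B cell markers, Ms4a1 and Pax5 never exceeded 1 and Cd79a never exceeded 4.24, but Cd79b was at 142 and 123 (WT) against 69.1 and 66.3 (cKO) at 0 h and at most 10.5 after stimulation. Of the T cell markers, Cd3d, Cd3e, Cd3g and Cd2 were at most 4.09 in any sample, and Lck was at most 7.10 at 0 h and 20.02 and 41.5 (WT) against 78.1 and 61.6 (cKO) after stimulation. The 4 dendritic cell markers summed to at most 14.6 at 0 h, and after stimulation Xcr1 was at 17.5 and 52.4 (WT) against 4.64 and 2.32 (cKO), called lower in cKO on both scalings (-3.54 ± 0.52, adjusted p = 0.017, limma), while Zbtb46 was at 6.59 and 7.08 against 16.6 and 23.9 without a call. The 4 fibroblast markers summed to 85.6 to 192 (WT) against 152 to 219 (cKO) at 0 h and 15.8 to 90.0 against 76.3 to 114 after stimulation. In any sample the 4 mast cell and basophil markers summed to at most 41.0 and the 4 erythroid markers to at most 12.3. The part of other cells in the results below was not tested, and in bulk RNA fewer cells of a type and less RNA per cell cannot be told apart.

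After stimulation the middle of the distribution moved. The median gene fell by 1.24 in WT and 1.03 in cKO on the deposited log2 scale, while total coverage stayed within the range above. Log2 fold changes below therefore come first from the fit in which each sample is scaled to the same median over the genes tested, and beside them from a fit scaled to equal total coverage. A gene is called when its fold change exceeds 1.5 with a Benjamini-Hochberg adjusted p under 0.05 in limma, and under stimulation "rose" and "fell" are kept for genes called on both scales. With 2 samples against 2, the smallest p of an exact permutation test is 0.333, so the p-values here rest on a spread shared across genes.

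**Figure D1:**
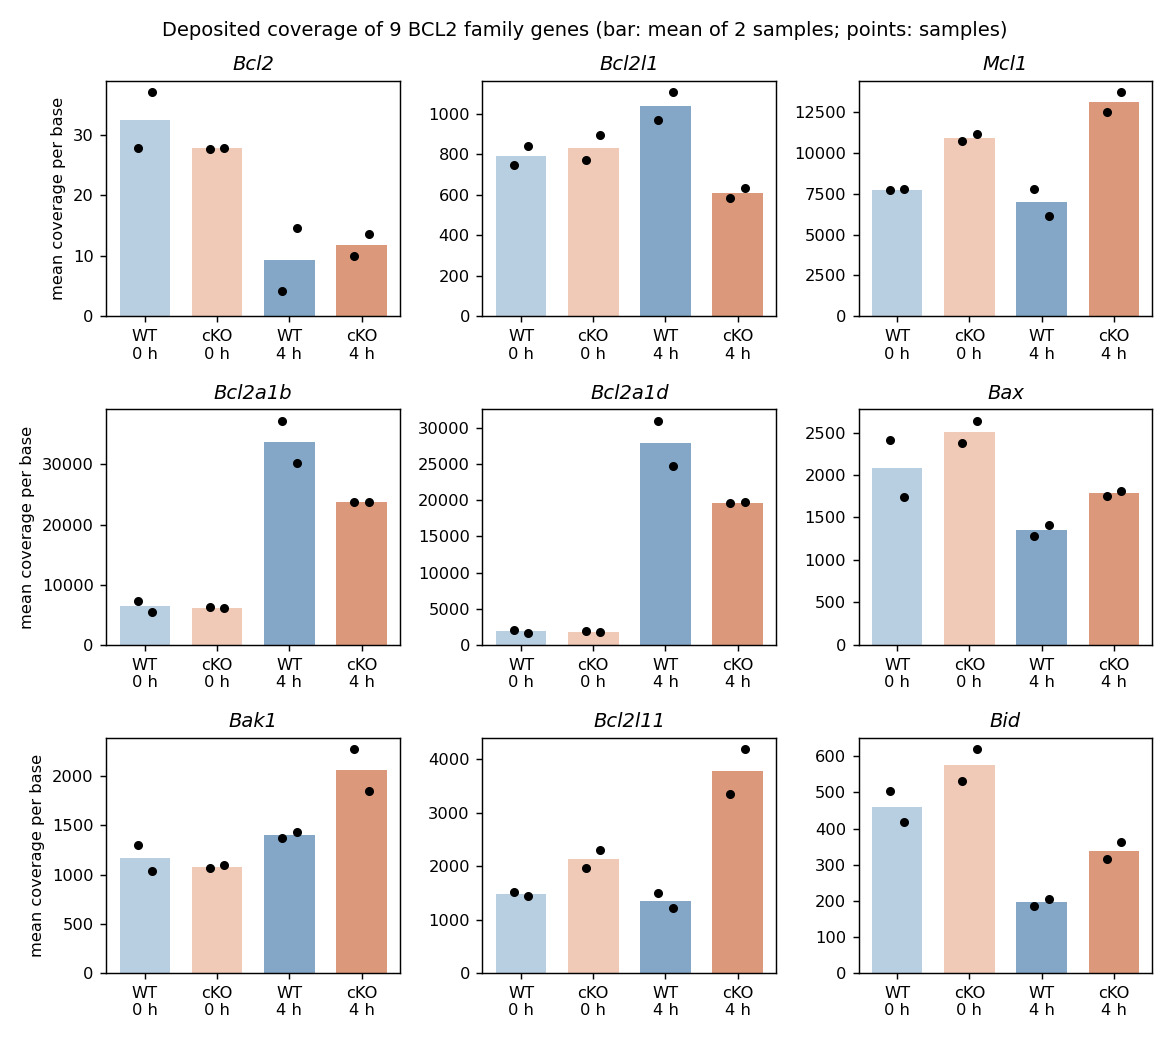
Deposited mean coverage per base (linear axis from 0, a scale of its own in each panel) of the 9 genes in the 4 groups; bars are means of 2 samples and points are the samples. Bcl2a1b and Bcl2a1d reach at least 19607 in every stimulated sample. The cKO samples stand above the WT samples for Mcl1, Bcl2l11 and Bid at both times. Of all genes tested, 35.6% separate in this way at 0 h and 47.3% at 4 h.

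At 0 h Mcl1 had the highest coverage of the family in both genotypes, followed by Bcl2a1b. Mean coverage in WT was 7733 for Mcl1 and 6415 for Bcl2a1b, then 2077 for Bax, 1877 for Bcl2a1d, 1477 for Bcl2l11, 1171 for Bak1, 794 for Bcl2l1, 461 for Bid and 32.4 for Bcl2. The samples of neighbouring genes in this order did not overlap, except those of Bax and Bcl2a1d. In cKO at 0 h the order was the same except that Bcl2l11, at 2140, stood above Bcl2a1d, at 1837. After stimulation Bcl2a1b and Bcl2a1d led in both genotypes and Mcl1 was next. In stimulated WT the samples of Bcl2a1b and Bcl2a1d overlapped, as did those of Bak1, Bcl2l11 and Bax next to each other, and no neighbouring samples overlapped in stimulated cKO. The 9 genes together took 0.129% to 0.154% of all coverage at 0 h, 0.445% and 0.523% in stimulated WT and 0.369% and 0.367% in stimulated cKO.

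The question of the genotype comparison is what loss of Nudt21 in myeloid cells does to these genes before and after stimulation. At 0 h none of the 9 members was called (0 of 9, where 4.60% of all genes tested were called), and on equal total coverage none was called either (background 4.33%). At an unadjusted p under 0.05 in limma, with no minimum fold, the counts at 0 h were 0 of 9 (21.7% of all genes tested) and, on equal total coverage, 2 of 9 (20.4%), Bcl2l11 and Mcl1, both higher. At 4 h 6 of 9 were under that p on each scaling, 3 higher and 3 lower, beside 33.5% and 31.2% of all genes. After stimulation Bcl2l11 was higher and Bcl2l1 lower in cKO, so 2 of 9 members were called where 13.3% of all genes were (6.49% higher and 6.79% lower). On equal total coverage Mcl1 joined as higher, giving 2 of 9 higher and 1 lower against a background of 12.1% (8.20% higher and 3.91% lower). On the deposited scale the cKO samples lay wholly above the WT samples for 3 of 9 members at 0 h (35.6% of all genes tested) and for 5 at 4 h (47.3%), and wholly below them for 0 at 0 h (20.7%) and 3 at 4 h (13.9%). On median scaling the counts were 3 above (28.8%) and 2 below, Bcl2 and Bak1 (28.0%), at 0 h, and 3 above (25.9%) and 3 below (32.3%) at 4 h. Over the 9 members the median difference at 4 h was 0.19 on the log2 scale, beside -0.01 over all genes tested.

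Bcl2l11 encodes BIM, a BH3-only protein that binds all the main pro-survival members. Its coverage was 1514 and 1439.9 (WT) against 1978 and 2301 (cKO) at 0 h, and 1512 and 1214 (WT) against 3359 and 4192 (cKO) after stimulation. Each cKO value exceeded each WT value at both times, as 35.6% of all genes tested did at 0 h and 47.3% at 4 h on this scale. The log2 fold change between genotypes was 0.44 ± 0.22 at 0 h (adjusted p = 0.352, limma, Benjamini-Hochberg) and 1.11 ± 0.22 at 4 h (adjusted p = 0.0344), and on equal total coverage 1.26 ± 0.15 at 4 h (adjusted p = 0.012). The call at 4 h was lost in the fit to the 4 stimulated samples alone (adjusted p = 0.150, limma) and when any library other than WT_4h replicate 1 was left out (adjusted p = 0.0589 to 0.144, log2 fold change 0.83 to 1.29). The difference between the times was not called (interaction 0.67 ± 0.32, adjusted p = 0.297).

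Bcl2l1 encodes BCL-XL, a pro-survival protein of the outer mitochondrial membrane. Its coverage was 747 and 842 (WT) against 772 and 895 (cKO) at 0 h, and 968 and 1107 (WT) against 587 and 636 (cKO) after stimulation. The genotypes overlapped at 0 h, and after stimulation both cKO samples lay below every other sample. Stimulated cKO samples lay wholly below stimulated WT samples for 13.9% of all genes tested on this scale. The log2 fold change between genotypes was -0.03 ± 0.11 at 0 h and -1.12 ± 0.11 at 4 h (adjusted p = 0.953 and 0.00844, limma, Benjamini-Hochberg). The difference between these effects was called on the main scale (interaction -1.10 ± 0.16, adjusted p = 0.0476, where 2.27% of all genes were called) but not on equal total coverage (-0.92 ± 0.19, adjusted p = 0.0847, background 2.51%) nor when any of the 8 libraries was left out (adjusted p = 0.0634 to 0.141). The lower level at 4 h was itself called without each library in turn, and was lost only in the fit to the 4 stimulated samples (adjusted p = 0.0611). It was the only member called for an interaction among the 9.

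Mcl1 encodes a short-lived pro-survival protein. Its coverage was 7717 and 7749 (WT) against 10689 and 11125 (cKO) at 0 h, and 7789 and 6137 (WT) against 12502 and 13679.9 (cKO) after stimulation. Both cKO samples exceeded both WT samples at each time, a separation that 35.6% (0 h) and 47.3% (4 h) of all genes tested also showed. Between genotypes this was a log2 fold change of 0.40 ± 0.21 at 0 h (adjusted p = 0.35) and 0.56 ± 0.21 at 4 h (adjusted p = 0.133, limma, Benjamini-Hochberg), neither of which was called. On equal total coverage the difference at 4 h was 0.71 ± 0.12 and was called (adjusted p = 0.0279), so the call for Mcl1 depends on the scaling. It also depends on single libraries, since on median scaling the difference at 4 h was 0.85 and called without WT_4h replicate 1 (adjusted p = 0.0297), 0.27 and not called without WT_4h replicate 2 (0.191), and 0.48 to 0.64 and not called without any of the others (up to 0.375, limma).

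Bcl2a1b and Bcl2a1d, pro-survival genes of the A1 cluster, were lower in stimulated cKO without passing the threshold. Bcl2a1b coverage was 7302 and 5528 (WT) against 6234 and 6184 (cKO) at 0 h, and 37241 and 30264 (WT) against 23661 and 23661 (cKO) after stimulation. Bcl2a1d coverage was 2071 and 1684 (WT) against 1884 and 1791 (cKO) at 0 h, and 31002 and 24725 (WT) against 19607 and 19731 (cKO) after stimulation. For both genes the genotypes overlapped at 0 h, and after stimulation both cKO samples lay below both WT samples. This separation was shown by 13.9% of all genes tested on this scale and by 32.3% on median scaling. At 4 h the difference on the log2 scale was -0.86 ± 0.23 for Bcl2a1b (adjusted p = 0.0612, 95% interval -1.44 to -0.29) and -0.85 ± 0.22 for Bcl2a1d (adjusted p = 0.0604, interval -1.42 to -0.29) by limma with Benjamini-Hochberg adjustment. Both were called with an intensity trend in the variance (adjusted p = 0.0203 and 0.0181) and without WT_4h replicate 2 (-1.13 and -1.14, adjusted p = 0.0376 and 0.0300, limma). Without WT_4h replicate 1 the differences were -0.60 and -0.57 and were not called, and without any of the other 6 libraries neither gene was called (adjusted p up to 0.191 and 0.188). On equal total coverage neither gene was called at 4 h. Over all alternatives the difference at 4 h ranged from -1.13 to -0.50 for Bcl2a1b and from -1.14 to -0.49 for Bcl2a1d. Since the 2 genes share reads they are not independent observations.

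Bcl2, the founding member of the family, had the lowest coverage of the 9. Its values were 27.7 and 37.0 (WT) against 27.7 and 27.8 (cKO) at 0 h, and 4.15 and 14.5 (WT) against 10.004 and 13.6 (cKO) after stimulation. The stimulated WT samples differed from each other by more than the genotypes did, and the log2 fold changes of -0.30 ± 0.54 at 0 h and 0.23 ± 0.54 at 4 h have 95% intervals of -1.68 to 1.08 and -1.15 to 1.60. A genotype difference in Bcl2 was not detectable at this precision.

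The effectors showed no called genotype difference. Bax coverage was 2409 and 1745 (WT) against 2372 and 2639 (cKO) at 0 h, and 1284 and 1415 (WT) against 1759 and 1812 (cKO) after stimulation. Bax differed between genotypes by a log2 fold change of 0.19 at 0 h and 0.05 at 4 h (95% intervals -0.23 to 0.62 and -0.38 to 0.47). Bak1 coverage was 1299.5 and 1042 (WT) against 1069 and 1094 (cKO) at 0 h, and 1371 and 1428 (WT) against 2270.5 and 1847 (cKO) after stimulation. In stimulated samples both cKO values of Bak1 lay above both WT values, beside 47.3% of all genes, but after median scaling the samples overlapped and the log2 fold change was 0.19 ± 0.16 (adjusted p = 0.458, limma, Benjamini-Hochberg), against -0.20 ± 0.16 at 0 h.

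Bid, the BH3-only protein that caspase 8 cleaves and that links death receptors to mitochondria, had coverage of 503 and 418 (WT) against 532 and 619.6 (cKO) at 0 h, and 187 and 206 (WT) against 316 and 362 (cKO) after stimulation. On the deposited scale each cKO value exceeded each WT value at both times, beside 35.6% and 47.3% of all genes. For Bid the log2 fold change was 0.23 ± 0.14 at 0 h and 0.43 ± 0.14 at 4 h (adjusted p = 0.44 and 0.104, limma, Benjamini-Hochberg), and it was called at 4 h only with the deposited values left unscaled (0.79, adjusted p = 0.0266).

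**Figure D2:**
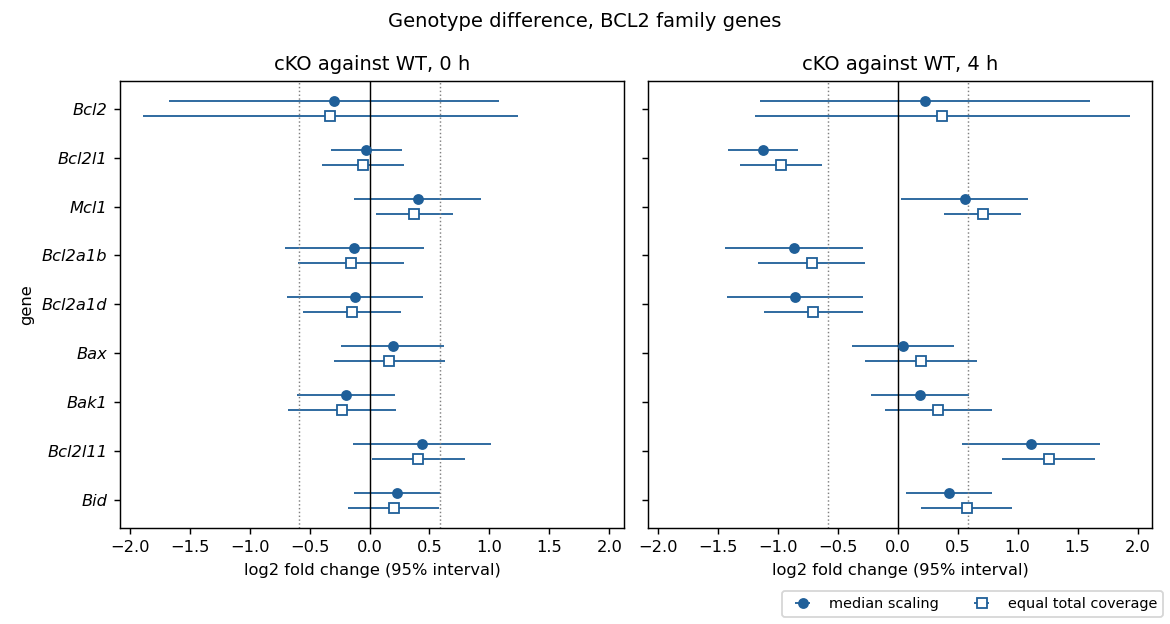
Log2 fold change of cKO against WT with 95% intervals from limma for the 9 genes, at 0 h (left) and 4 h (right); filled circles are from median scaling, open squares from equal total coverage, and dotted lines mark a 1.5-fold change. At 4 h the intervals of Bcl2l1, Bcl2a1b and Bcl2a1d lie wholly below 0 on both scales. Those of Bcl2l11, Mcl1 and Bid lie wholly above it on both. Only Bcl2l1 and Bcl2l11 were called on both scales.

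Ratios of 2 genes in the same sample need no scaling between samples and were used to describe the balance of the family. The coverage ratio of Bcl2l11 to Bcl2l1 was 2.03 and 1.71 (WT) against 2.56 and 2.57 (cKO) at 0 h, and 1.56 and 1.10 (WT) against 5.73 and 6.60 (cKO) after stimulation. The stimulated cKO samples had the highest ratios and the stimulated WT samples the lowest. The log2 ratio was higher in cKO by 0.46 at 0 h and by 2.23 at 4 h. Bcl2l11 and Bcl2l1 are the members called higher and lower at 4 h in these same data, so this ratio restates those differences. The ratio of Bcl2l11 to Mcl1 lay between 0.185 and 0.207 in all 0 h samples and in stimulated WT, and was 0.269 and 0.306 in stimulated cKO. The ratio of Bcl2a1b to Mcl1 was 0.946 and 0.713 (WT) against 0.583 and 0.556 (cKO) at 0 h, and 4.78 and 4.93 (WT) against 1.89 and 1.73 (cKO) after stimulation. Between the effectors, the ratio of Bak1 to Bax was 0.539 and 0.597 (WT) against 0.45 and 0.415 (cKO) at 0 h, and 1.07 and 1.01 (WT) against 1.29 and 1.02 (cKO) after stimulation, so all 4 stimulated samples lay above all 4 samples at 0 h. These ratios are descriptions without a test, and with 2 samples a group the spread of each is poorly known.

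**Figure D3:**
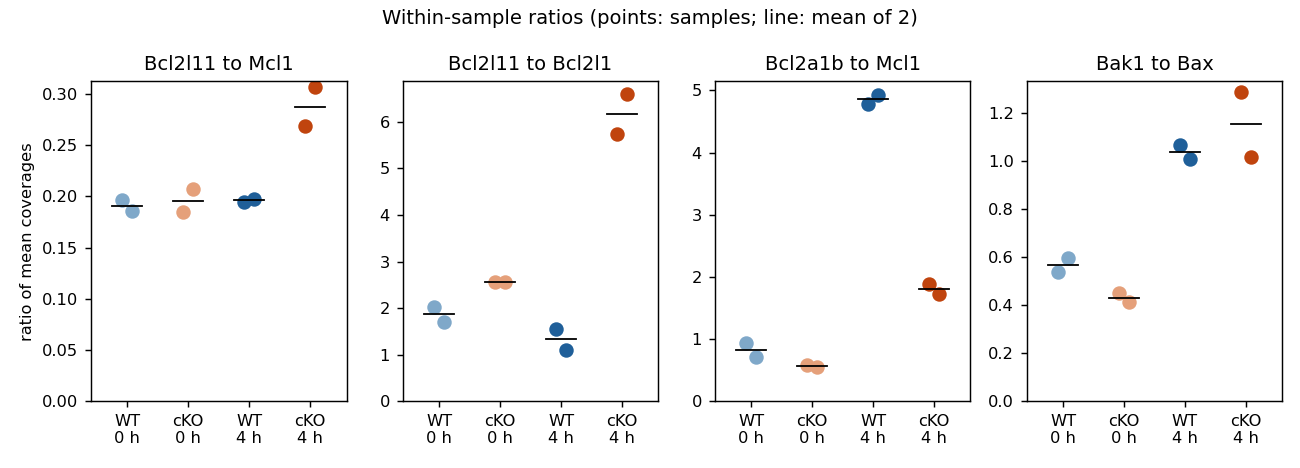
Ratio of the mean coverages of 2 genes within each sample (linear axes from 0); points are samples and lines are means of 2. The 2 stimulated cKO samples stand above the other 6 for Bcl2l11 to Bcl2l1 and for Bcl2l11 to Mcl1, and below stimulated WT for Bcl2a1b to Mcl1.

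The pro-survival genes made up 75.1% to 77.3% of the summed coverage of the 9 members in the 0 h samples, with little difference between genotypes. After stimulation the pro-survival share was 94.6% and 93.6% in WT and 88.0% and 87.5% in cKO. The share of the 2 BH3-only genes went from 8.55% and 9.07% to 2.09% and 2.14% in WT, and from 9.82% and 10.9% to 5.74% and 6.91% in cKO. The deposited coverage of these 2 genes summed to 2510.3 and 2920.4 at 0 h and 3675 and 4554 after stimulation in cKO, so there the share was lower while the sum was higher. In WT they summed to 2018 and 1858 at 0 h and 1698 and 1420.4 after stimulation. Over the same samples the pro-survival sum went from 19607 and 20024 to 56366 and 57722 in cKO and from 17865 and 15839 to 77004 and 62247 in WT. Bcl2a1b took 45.8% and 45.5% of the sum in stimulated WT, against 36.9% and 35.9% in stimulated cKO. Bcl2a1d took 38.1% and 37.2% in stimulated WT, against 30.6% and 29.9% in stimulated cKO. Mcl1 had 9.57% and 9.23% in stimulated WT, against 19.5% and 20.7% in stimulated cKO.

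The stimulation comparison asks how IFNγ and LPS change the family within each genotype. On both scales Bcl2a1b and Bcl2a1d rose in both genotypes, which makes 2 of 9 members where 10.2% of all genes did so. In WT the log2 fold change was 3.87 ± 0.23 for Bcl2a1b and 5.36 ± 0.22 for Bcl2a1d on median scaling, and 2.45 and 3.94 on equal total coverage. In cKO the corresponding values were 3.13 ± 0.23 and 4.62 ± 0.22, and 1.89 and 3.38. The largest adjusted p among these 8 was 0.000481 (limma, Benjamini-Hochberg). The ratio of Bcl2a1d to Bcl2a1b was 0.284 to 0.305 in the 0 h samples and 0.817 to 0.834 in the stimulated samples, and the genotypes overlapped at each time.

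Bak1 and Bcl2l11 rose on both scales in cKO. Bak1 changed by 2.12 ± 0.16 on median scaling and 0.88 ± 0.17 on equal total coverage, and Bcl2l11 by 2.02 ± 0.22 and 0.78 ± 0.15. In WT both were called on median scaling only (1.73 and 1.34), and the equal-total values were 0.32 ± 0.17 and -0.07 ± 0.15. The interaction of genotype and stimulation was called for neither on either scale, so a difference between genotypes in these responses was not shown.

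The other members depended on the scale. Bcl2l1, Mcl1 and Bax were called higher in both genotypes on median scaling (for Mcl1 1.31 in WT and 1.46 in cKO) and were called in neither direction on equal total coverage (-0.11 and 0.22). Bax gave 0.86 and 0.71 on median scaling but -0.55 and -0.53 on equal total coverage, a change of sign. Bcl2l1 gave 1.85 and 0.76 against 0.43 and -0.48. Bid was called lower on equal total coverage in both genotypes (-1.17 and -0.80), whereas median scaling gave 0.24 and 0.44. Bcl2 was called lower in WT on equal total coverage (-1.98). The low sample was WT_4h replicate 1, at 4.15, and without it the median-scaled value, -0.57 with all samples, was 0.21, while without WT_4h replicate 2 it was -1.35 and called (adjusted p = 0.0205, limma).

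On median scaling 7 of 9 members were called higher by limma and none lower in each genotype (none lower at an unadjusted p under 0.05 either), where 33.3% of all genes were called higher and 21.4% lower in WT, and 31.1% and 20.8% in cKO. On equal total coverage 2 of 9 were called higher and 2 lower in WT, where 11.9% and 53.2% of all genes were, and 4 higher and 1 lower in cKO, where 12.9% and 51.2% were. The median log2 fold change of the members was 1.34 in WT and 1.46 in cKO on median scaling, beside 0.14 and 0.12 over all genes. On equal total coverage it was -0.07 and 0.22, beside -1.19 and -1.07. The WT and cKO comparisons do not share samples, and both use the same scaling.

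**Figure D4:**
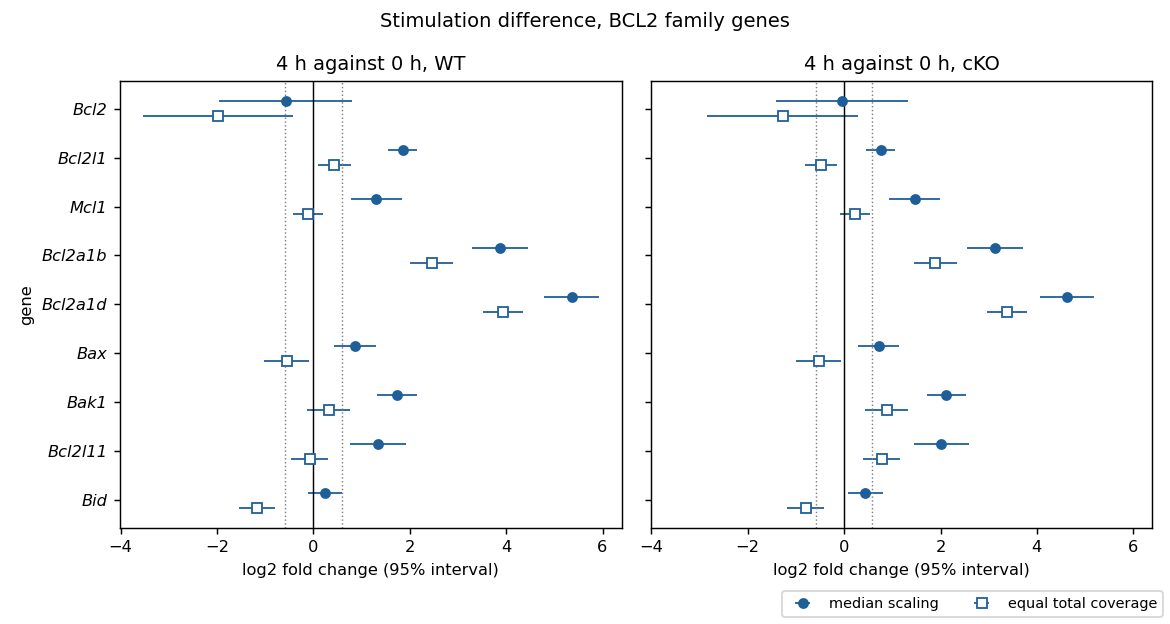
Log2 fold change of 4 h against 0 h with 95% intervals from limma for the 9 genes in WT (left) and cKO (right); filled circles are from median scaling, open squares from equal total coverage, and dotted lines mark a 1.5-fold change. Only Bcl2a1b and Bcl2a1d lie beyond the upper dotted line with their whole intervals on both scales in both genotypes.

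Other genes of the family were counted from a list of 17, of which 15 were tested. Bcl2l10 was listed at 0 in 7 samples and Hrk in all 8. None of the 15 was called between genotypes at either time on median scaling by limma (2 at 0 h and 7 at 4 h had an unadjusted p under 0.05, beside 21.7% and 33.5% of all genes), and Bnip3l, a BH3-like gene of mitophagy, was called higher in stimulated cKO on equal total coverage (0.67 ± 0.14, adjusted p = 0.0427, limma). Under stimulation 4 of the 15 rose in both genotypes, where 10.2% of all genes did: Bcl2a1a, Bcl2a1c, Bcl2l14 and the BH3-only gene Pmaip1 (NOXA). Bcl2a1a coverage was 538 and 461 (WT) against 522 and 518 (cKO) at 0 h, and 11845 and 9207 (WT) against 8136 and 8343 (cKO) after stimulation. It rose as the other A1 genes did, with log2 fold changes of 5.86 in WT and 5.19 in cKO on median scaling. Bcl2l14 went from at most 1.24 in the 0 h samples to between 48.1 and 60.1.

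Bmf, a BH3-only gene, had the largest fitted fall of these 15 genes in both genotypes. Its coverage was 209 and 236 (WT) against 211 and 300.2 (cKO) at 0 h, and 0.987 and 1.36 (WT) against 2.995 and 6.10 (cKO) after stimulation. Stimulation changed Bmf by a log2 fold change of -6.05 ± 0.37 in WT and -4.65 ± 0.37 in cKO (adjusted p = 0.000144 and 0.000376, limma, Benjamini-Hochberg). Both stimulated cKO samples lay above both stimulated WT samples, beside 47.3% of all genes, and the genotype difference at 4 h was not called (1.48 ± 0.37, adjusted p = 0.0565). Bnip3l and Bcl2l12 also fell in both genotypes, which makes 3 of 15 where 15.8% of all genes did. Bcl2a1c was listed at 0 in all 0 h samples and at 1.35 to 5.17 after stimulation, so the size of its fold change depends on the 0.1 added before the log.

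Among the genes that act around the mitochondrial step, 10 genes of the apoptosome and caspases, 5 caspase inhibitors and 10 genes of death receptor and necroptosis signalling were tested. Xiap, an inhibitor of caspases, was lower in cKO at both times. Its coverage was 758 and 839.8 (WT) against 495 and 597 (cKO) at 0 h, and 593 and 641 (WT) against 432 and 433 (cKO) after stimulation, and both cKO samples lay below both WT samples each time, beside 20.7% and 13.9% of all genes. For Xiap the log2 fold change was -0.65 ± 0.11 at 0 h and -0.87 ± 0.11 at 4 h (adjusted p = 0.0476 and 0.0131, limma, Benjamini-Hochberg), of which the first was not called on equal total coverage (0.0525). Fas, the death receptor, had stimulated values of 874 and 875 in WT and 623 and 564 in cKO and was lower by both scalings (-0.92 ± 0.17, adjusted p = 0.0259). Birc2 and Aifm1 were lower in stimulated cKO on median scaling only (-0.65 and -0.67). Apaf1, the scaffold of the apoptosome, was higher in cKO at 0 h on median scaling only (0.63 ± 0.09, adjusted p = 0.0346). In all, 2 of these 25 genes were called between genotypes at 0 h (1 higher and 1 lower) and 4 at 4 h (all lower), beside the backgrounds of 4.60% and 13.3%, on median scaling. Scaled to equal total coverage, 1 was called at 0 h, Ripk3, a kinase of necroptosis that was lower (-0.62 ± 0.10, adjusted p = 0.0385, limma), and 3 at 4 h, Fas and Xiap as lower and the adaptor Fadd as higher (0.66 ± 0.11, adjusted p = 0.025, limma), beside 4.33% and 12.1%.

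Under stimulation 7 of the 25 genes rose in both genotypes on both scales, as 10.2% of all genes tested did. They were Birc2, Birc3, Cflar, Cycs, Fas, Mlkl and Ripk3, of which Cflar (FLIP) restrains caspase 8 and Mlkl executes necroptosis. Cflar coverage was 983 and 1237 (WT) against 1183 and 1369.5 (cKO) at 0 h, and 13801 and 13393 (WT) against 18089 and 18146 (cKO) after stimulation, a log2 fold change of 5.09 in WT and 5.03 in cKO. Casp9 and Casp2, both initiator caspases, fell in both genotypes on both scales, as 15.8% of all genes did. Casp9 coverage was 459 and 499 (WT) against 602 and 603 (cKO) at 0 h, and 24.7 and 38.1 (WT) against 44.2 and 48.6 (cKO) after stimulation, with log2 fold changes of -2.49 and -2.50.

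**Figure D5:**
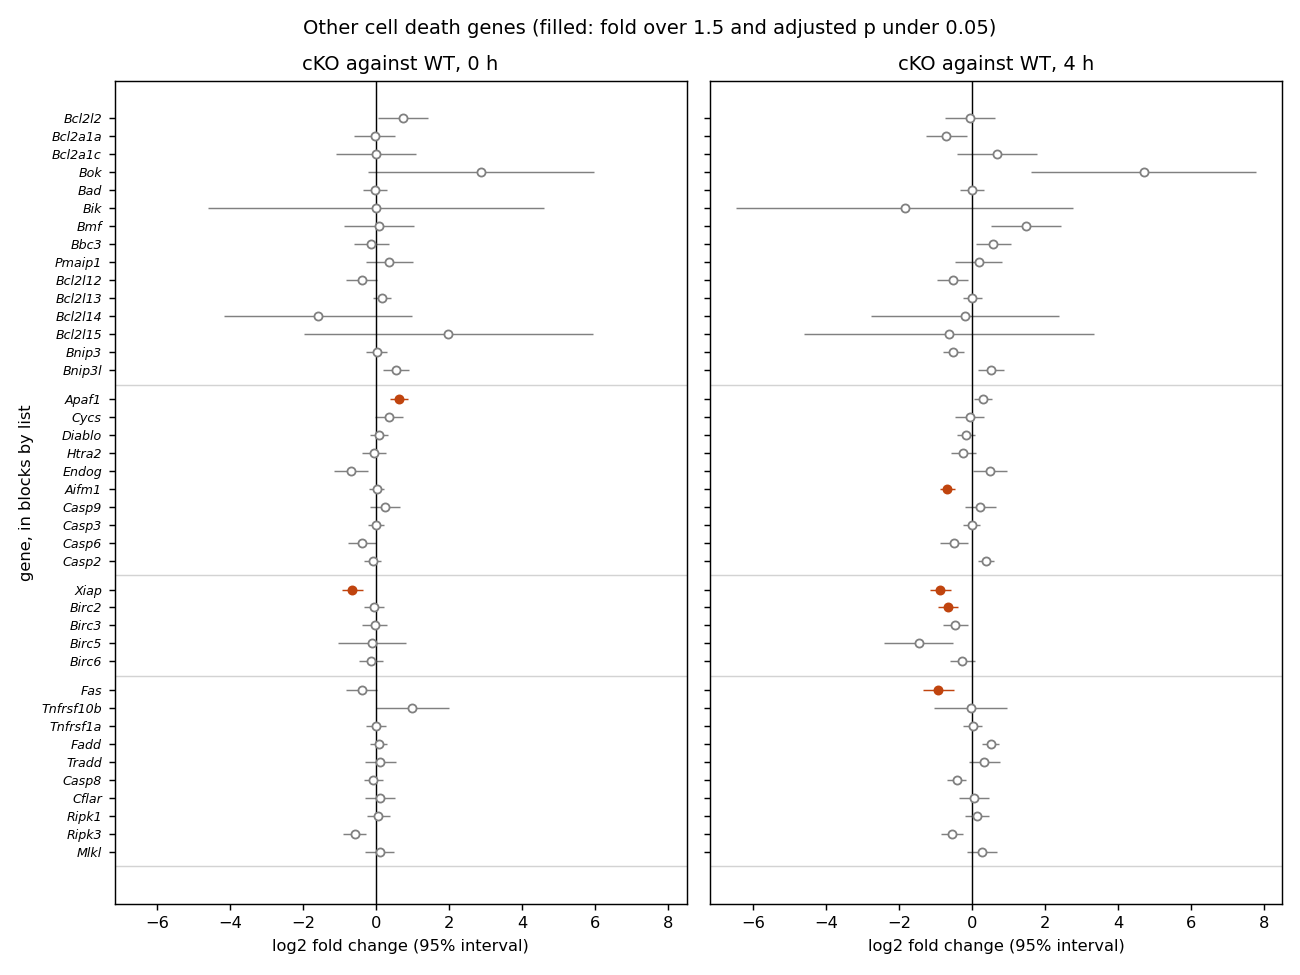
Log2 fold change of cKO against WT with 95% intervals (limma, median scaling) for the other tested cell death genes at 0 h (left) and 4 h (right), in blocks for the other BCL2 family genes, apoptosome and caspases, caspase inhibitors, and death receptor and necroptosis genes; filled points are called. At 0 h Apaf1 and Xiap are filled, and at 4 h Aifm1, Xiap, Birc2 and Fas.

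Promoter sequence was looked at because the A1 genes moved together. The consensus for NF-κB was searched on both strands from 250 bases before to 50 bases after each start site in RefSeq promoters of GRCm38.p6, which gave 12 promoters for the 9 members. It was found in 1 of the 12, the promoter of Bcl2l1 whose window is chr2:152830668-152830967 on the minus strand, beginning 242 bases before the start site, and in 8.46% of 32851 promoters in all. The match is shown in capitals.
Bcl2l1: tgtttgtgGGGGGTCTCCagcatacgcc
No match in a window says only that these letters are not within it.

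In each class the member with the highest mean scaled coverage over all 8 samples was taken, which need not lead in each group. The genes whose values over the 8 samples were most like it were named by Pearson correlation of scaled log2 values. They were Psma6, Vta1 and Pdcd10 for Bcl2a1b (r from 0.9992 to 0.9994), Plcd3, Nedd8 and Snrnp70 for Bax (0.9937 to 0.9961) and Chka, Rnf11 and Ampd3 for Bcl2l11 (0.9961 to 0.9986). The 8 points fall in 4 groups and share the scaling, so these are descriptions of likeness chosen from 16284 genes.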

How the data were processed

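RNA-seq of 8 BMDM samples was deposited by the authors as 1 coverage signal per gene and sample. Per the submitters' processing notes, reads were processed with HISAT2 2.2.1 and StringTie 2.1.7 on GRCm38/mm10. The unit was not named in the tables and was read from the values as mean coverage per base, unscaled for depth. Read numbers per gene are not given in the sources used here, so no counting interval was computed. The library kit named in the labels does not mark strand, so reads of overlapping antisense genes cannot be told apart. The authors' fold changes, p-values and classes, also in the tables, were not used, and 0 sample columns were left unused.

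Each sample was multiplied by 1 factor that equalised the median log2 value over genes with a mean of at least 0.5, and log2(value + 0.1) was fitted with 4 group means in limma 3.58.1 (R 4.3.3), with Benjamini-Hochberg adjustment over 16284 genes, so fold changes are on the log2(value + 0.1) scale and understate those of low genes. A gene was called at a fold above 1.5 and an adjusted p under 0.05 (the interaction at an adjusted p under 0.05). The script was tested on simulated data. The members and lists were chosen with earlier results of these data known. Named were all 9 members, called genes of the other lists, Nudt21 and stimulation genes, and the 3 most similar genes per class. Alternatives covered pseudocount, filter, scaling, variance trend, samples fitted, unadjusted p, a replicate block and each library left out. Positions and 3′UTRs came from GENCODE M21 (GRCm38) and promoters from RefSeq. Of the gene lists, 2 entries are not reported here.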

Additional observations from a re-analysis of the deposited data

Results flagged for a closer look

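Bcl2l1 was set apart because its genotype effect differed between the times by a test of the difference itself. Against WT, the log2 fold change in cKO was -0.03 at 0 h and -1.12 at 4 h, and the effect at 4 h minus that at 0 h was -1.10 ± 0.16 (SE, 2 samples in each of 4 groups; adjusted p = 0.0476, limma, Benjamini-Hochberg). On the deposited log2 scale the median gene fell after stimulation by 1.24 in WT and 1.03 in cKO. Stimulated WT samples lay wholly above those at 0 h for 16.4% of all genes tested, and 24.1% had a positive log2 fold change in cKO. For Bcl2l1 both stimulated WT samples (968 and 1107) lay above the WT samples at 0 h (747 and 842). Both stimulated cKO samples (587 and 636) lay below the cKO samples at 0 h (772 and 895), the commoner direction on this scale. That opposite movement depends on the scale, since after median scaling Bcl2l1 was higher after stimulation in both genotypes (483 and 551 against 1891 and 1833 in WT, and 489 and 525 against 811 and 903 in cKO). Over its alternatives the adjusted p of the interaction ranged from 0.0118 to 0.209 and the difference from -1.19 to -0.82.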

How the results depend on the processing

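With 2 samples a group and no read numbers, precision is limited by the spread between samples. Of 828 recomputed member values 731 kept their direction and side of the threshold. For part of them the direction could not change. The variance trend, unadjusted p, replicate block and fit to only the samples compared keep the fold change. Leaving out a library outside the comparison does so too. Bcl2l11 stayed higher and Bcl2l1 lower in stimulated cKO in direction under every alternative run (0.83 to 1.47 and -1.20 to -0.76). The stimulation effects, by contrast, changed with scaling, and the scaling to the median of genes with a mean of at least 100 was chosen after seeing the data. The median of all genes under stimulation was 0.14 in WT and 0.12 in cKO on median scaling, -1.24 and -1.03 on the deposited scale and -1.19 and -1.07 on equal total coverage; higher against lower calls in WT were 5419 and 3484, 1901 and 8910, and 1945 and 8668, and for genotype at 4 h 1057 and 1106, 2604 and 448, and 1335 and 636. The causes of the changes below were not tested, except that leaving out samples leaves fewer of them.

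Signs changed as follows. On the deposited scale: Bax 0.12 (interaction), -0.60 (WT stimulation) and -0.49 (cKO stimulation), Bcl2l1 0.0687 (genotype at 0 h) and -0.45 (cKO stimulation), Bcl2l11 -0.12 and Mcl1 -0.16 (WT stimulation), and Bid -1.22 and -0.76 (WT and cKO stimulation). On equal total coverage, for the same results: Bax 0.0286, -0.55 and -0.53, Bcl2l1 -0.48 (cKO stimulation), Bcl2l11 -0.074, Mcl1 -0.11, and Bid -1.17 and -0.80. With quantile normalization, for WT and cKO stimulation: Bax -0.49 and -0.53, Mcl1 -0.45 and -0.0725, Bid -0.21 and -0.0632, and Bcl2 0.0234 in cKO. With the added scaling: Bid -0.37 and -0.11. Leaving out single libraries also turned values that were not called: Bax at 0 h (-0.0322 to 0.42), at 4 h (-0.0036 to 0.0938) and in the interaction (-0.37 to 0.0773), Bcl2 at 4 h (-0.55 to 1.01), in the interaction (-0.25 to 1.31), in WT stimulation (-1.35 to 0.21) and in cKO stimulation (-0.29 to 0.20), Bcl2l1 (-0.12 to 0.0686), Bcl2a1b (-0.32 to 0.0657) and Bcl2a1d (-0.26 to 0.0236) at 0 h, and Mcl1 in the interaction (-0.13 to 0.45).

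Members called higher in stimulated cKO, 1 on median scaling (share of all genes 6.49%), were 3 on the deposited scale (16.0%), 2 on equal total coverage (8.20%), 2 with quantile normalization (5.80%), 0 in the 4-sample fit (0.989%) and 0 to 2 without single libraries. Members called lower there, 1 on median scaling (6.79%), were 2 with a pseudocount of 1 (7.65%), 2 with quantile normalization (5.04%), 3 with the added scaling (6.55%), 3 with an intensity trend (7.87%), 3 with unadjusted p (10.6%), 0 in the 4-sample fit (0.590%) and 1 to 3 without single libraries. Members called higher by stimulation in WT were 7 on median scaling, and 2 were called on the deposited scale, 2 on equal total coverage and 3 with quantile normalization, where 33.3%, 11.7%, 11.9% and 21.6% of all genes were (7 to 7 without single libraries), and members called lower, 0 on median scaling by limma (0 at an unadjusted p under 0.05), were 3 on the deposited scale and 2 on equal total coverage, where 21.4%, 54.7% and 53.2% of all genes were (0 to 1). In cKO the 7 called higher (31.1%) were 4 under each of these, beside 13.2%, 12.9% and 20.7% (6 to 7) and those called lower, 0 on median scaling by limma (0 at an unadjusted p under 0.05), were 1 and 1 on the deposited scale and equal total coverage, beside 20.8%, 50.4% and 51.2%. The Bcl2l1 interaction was the 1 member called, and the count was 0 with no filter, on the deposited scale, on equal total coverage, with quantile normalization, with the replicate block and without any single library (0 to 0).

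All genes called numbered 749 for genotype at 0 h (1232 with quantile normalization, 147 in the 4-sample fit, 1997 with unadjusted p, 261 to 803 without single libraries), 2163 at 4 h (257, 3372 with unadjusted p, 631 to 2340), 8903 and 8443 for stimulation (8098 to 8985 and 7314 to 8733) and 370 for the interaction (1147 with an intensity trend, 30 with the replicate block, 3534 with unadjusted p, 220 to 580). The titles repeat the replicate numbers at both times without saying that they mark the same mice. Deviations of same-numbered samples correlated at 0.0210 in WT and 0.0232 in cKO over 16284 genes, and at 0.161 and 0.0974 over the 8628 genes with a mean of at least 100, so a pairing was not established. With the replicate block Bcl2l1 had an interaction of -1.10 (adjusted p = 0.209, limma), and the block changed no other call among the members.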
